A study of Mus musculus with 4 samples.

Results

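The genes described here are 34 members of the NF-kB and TNF inflammatory response, measured in liver of IlrunKO and wild-type (WT) mice. They were taken by name: every non-control probe whose gene name, or whose accession's symbol, was one of the 34 belonged to the group. That gave 44 probes out of 39429 on the array, and 34 of 31709 gene names. By role they comprised 4 cytokines, 7 chemokines, 8 feedback inhibitors, 2 receptors, 4 NF-kB subunits and nuclear cofactors, 2 adhesion molecules and 7 other target genes. The IlrunKO group held 4 livers and the WT group held 4. IlrunKO mice carried a global deletion of Ilrun, and both groups were male C57BL/6 mice on chow, whose livers were taken after a 4 h fast, of unstated age. The labels count 4 biological replicates per genotype, but do not say whether a sample is 1 mouse or a pool. Each of 4 Agilent 2-colour arrays carried 1 IlrunKO and 1 WT liver, and the dyes were swapped: the IlrunKO sample was red (Cy5) on arrays 1 and 2, and green (Cy3) on arrays 3 and 4.

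NF-kB is a family of dimeric transcription factors that is held in the cytoplasm by inhibitor proteins of the IkB type. TNF, interleukin-1 and bacterial products release it: receptor adaptors recruit ubiquitin ligases and kinases, the IKK complex phosphorylates IkB, and the freed dimers enter the nucleus and bind kappaB sites. Among the genes it induces are its own inhibitors, which end the response, and in liver the Kupffer cells, the resident macrophages, are the main source of TNF and interleukin-1. ILRUN is known, from work in human cells, as an inhibitor of antiviral and pro-inflammatory cytokine expression that acts on the transcription factor IRF3 and the coactivators p300 and CBP. The question addressed here was whether, in unchallenged liver after a short fast, the transcripts of this response differ when Ilrun is missing.

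Sequence of the member promoters is given first, because kappaB sites are what the response is read through. RefSeq promoter windows (build GRCm38.p6, 250 bases before and 50 bases after each gene start, 300 bases in all) were at hand for 28 of the 34 members. The kappaB consensus, searched on both strands, occurred in 12 of these 28 members (42.9%), against 1388 of 27025 genes (5.14%) with a window. The consensus is nearly its own reverse complement, so a single stretch can match on both strands. The members with a match were Il6, Cxcl1, Cxcl2 and Cxcl10 among the cytokines and chemokines, Nfkbia, Nfkbie, Tnfaip3, Tnip1 and Cyld among the inhibitors, and Nfkb2, Sod2 and Ier3. The 170 bases upstream of the start are shown for 6 of them, chosen to cover a chemokine with the lowest p of the members, the most variable chemokine, 3 inhibitors and a subunit gene. They run 5′ to 3′ on the strand of the gene, and capitals mark the kappaB matches, overlapping matches being merged.
Cxcl10, chr5:92348890-92349059, minus strand: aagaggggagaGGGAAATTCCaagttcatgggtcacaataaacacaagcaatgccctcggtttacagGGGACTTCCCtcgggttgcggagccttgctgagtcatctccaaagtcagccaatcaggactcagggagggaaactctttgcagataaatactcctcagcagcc
Cxcl1, chr5:90891075-90891244, plus strand: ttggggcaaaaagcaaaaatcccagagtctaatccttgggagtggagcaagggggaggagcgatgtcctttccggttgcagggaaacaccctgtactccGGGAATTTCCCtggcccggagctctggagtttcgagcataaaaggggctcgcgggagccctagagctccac
Tnip1, chr11:54962941-54963110, minus strand: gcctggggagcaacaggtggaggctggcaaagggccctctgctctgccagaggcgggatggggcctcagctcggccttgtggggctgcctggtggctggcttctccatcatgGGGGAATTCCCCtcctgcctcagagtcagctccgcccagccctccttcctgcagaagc
Nfkbia, chr12:55492648-55492817, minus strand: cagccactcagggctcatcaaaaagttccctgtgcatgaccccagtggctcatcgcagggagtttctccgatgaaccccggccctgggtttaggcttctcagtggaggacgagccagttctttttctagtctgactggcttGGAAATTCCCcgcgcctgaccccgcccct
Tnfaip3, chr10:19015411-19015580, minus strand: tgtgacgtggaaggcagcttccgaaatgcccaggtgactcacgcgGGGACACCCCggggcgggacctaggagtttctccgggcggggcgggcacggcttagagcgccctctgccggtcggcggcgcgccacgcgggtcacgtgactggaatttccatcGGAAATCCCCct
Nfkb2, chr19:46304567-46304736, plus strand: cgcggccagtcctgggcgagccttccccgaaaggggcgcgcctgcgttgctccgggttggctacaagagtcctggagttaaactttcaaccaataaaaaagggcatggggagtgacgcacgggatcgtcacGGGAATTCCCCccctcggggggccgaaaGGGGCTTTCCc

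In these windows Cxcl10 had 2 separate matches upstream of its start and Tnip1 had 1 stretch in which 3 match positions overlapped. For Nfkb2 the start shown is the first of 3 in RefSeq. Matches lay between 159 bases before the start (Cxcl10) and 2 bases before it (Nfkb2) in the stretches printed. A match is a run of letters, not a bound site, and the arrays did not measure binding. Among the tested members, the 10 with a match had a median log2 ratio of 0.08 and 7 of them lay above 0. The 14 with a window and no match had a median of 0.11, with 10 above 0. No match means only that the 10-base consensus was absent from the window, not that the gene lacks a kappaB site.

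**Figure D1:**
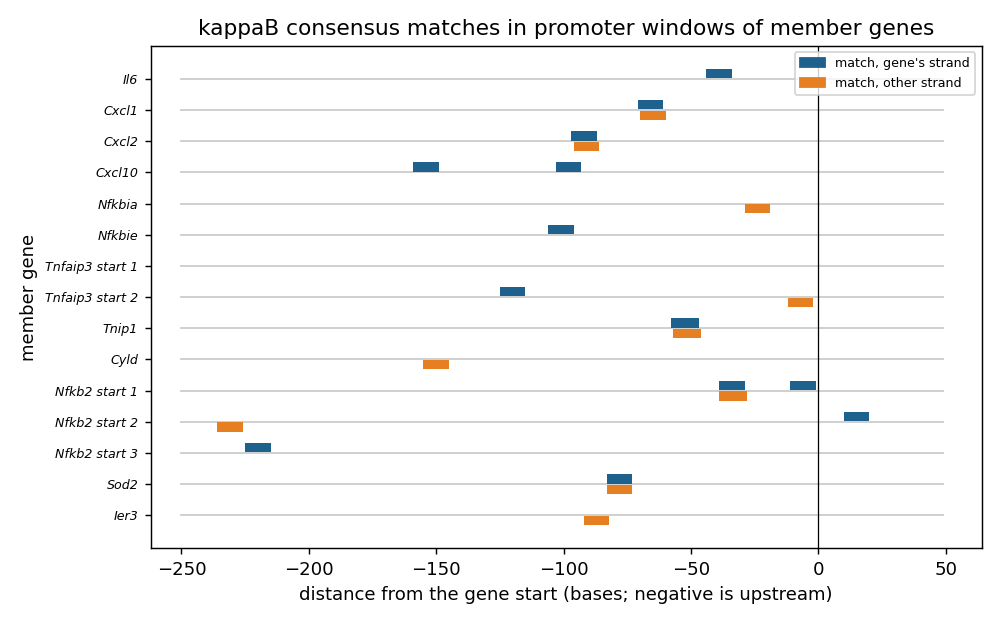
Position of kappaB consensus matches in the promoter windows of the 12 members that hold at least 1. The horizontal axis is the distance in bases from the gene start, negative upstream; grey lines are the windows, blue bars matches on the strand of the gene and orange bars matches on the other strand. Nfkb2 and Tnfaip3 have a row for each annotated start, and 1 of the Tnfaip3 starts has no match.

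The values that follow are log2 ratios of IlrunKO over WT on each array, and levels, which are log2 intensities of each liver after normalisation and serve only for comparing livers at the same probe. Between 60.0% and 67.3% of probes stood well above background in a given liver, all arrays lay on 1 slide and were scanned in 1 run, and the number of arrays limits the precision. Ilrun itself was 18.5-fold lower in IlrunKO at its brighter probe, with levels of 7.99, 7.98, 7.98 and 7.76 in IlrunKO on arrays 1 to 4, against 12.11, 12.09, 12.02 and 12.32 in WT (adjusted p = 0.00337 in limma). Its dimmer probe was well above background in 1 of 4 IlrunKO and 4 of 4 WT livers, and its log2 ratio was below 0 on all 4 arrays. Both probes therefore matched the labels on all 4 arrays; the labels do not say which part of the gene was deleted. The defining hepatocyte gene Alb had levels of 16.74 to 17.63 in IlrunKO and 17.06 to 17.85 in WT.

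None of the members rose or fell in the sense of passing the threshold. With 4 arrays, a failure to pass does not show that a transcript was unchanged. Of 34 members, 30 were bright enough to be tested, and 0 of these 30 passed an adjusted p of 0.05 in limma, where 269 of all 19673 genes tested (1.37%) passed. Of the 40 member probes tested singly, 0 passed, against 1.50% of all probes. At an unadjusted p under 0.05 there were 8 members, 5 higher and 3 lower in IlrunKO; among all genes tested the share was 20.5%, and 8 of 30 is near it. Ratios had the same sign on all 4 arrays for 6 members (4 higher, 2 lower), where 23.2% of all genes did so. Levels of the IlrunKO and WT livers did not overlap for 3 members, Tnip1, Tnfaip2 and Birc3, where 9.0% of all genes were separated in this way, so this share is near the background too.

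Under the main processing, the data bound how large a difference could have gone unseen. The 95% interval of the fitted log2 ratio lay within 1 of 0, that is within a 2-fold change either way, for 28 of the 30 tested members, and within 0.5 of 0 for 24. The exceptions to the first bound were Cxcl1 and Socs3. These intervals are per gene and rest on the spread within each dye orientation. They also hold only for the offset of 50, which draws the ratios of dim probes towards 0. With Agilent's processed signals the ratio was -0.79 for Ccl3, 0.50 for Il1b and 0.52 for Icam1. In the main fit these were -0.12, 0.25 and 0.17, while the bright Nfkbia had -0.22 in both. For dim members a 2-fold change is therefore not excluded. The bounds also depend on the dye term. Vcam1, a bright member, had an upper bound of 0.97 in the main fit. Its unadjusted p in limma was 0.048 there and 0.13 without the dye term, so its bound holds only for the main fit. The median ratio of the tested members was 0.09, with 19 above 0 and 11 below, and that of all genes was 0.00. Array by array the median of the members was -0.06, 0.20, 0.07 and 0.03, so that array 1 ran the other way from arrays 2 to 4. Without array 2 the median over the members was 0.0048, and without array 1 it was 0.13.

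**Figure D2:**
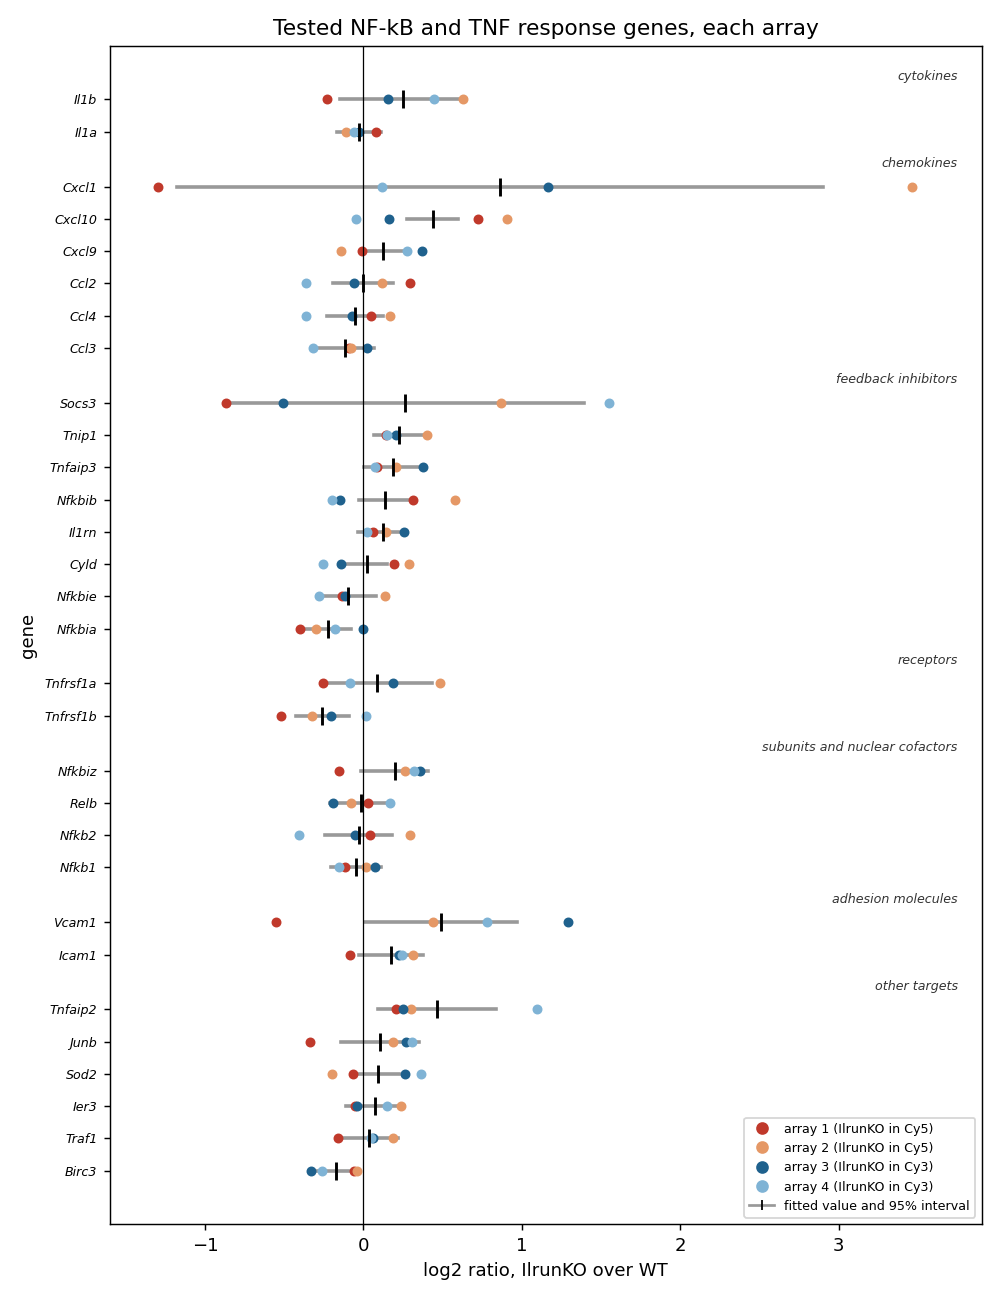
Log2 ratio of IlrunKO over WT for the 30 tested members, grouped by role. Coloured points are the 4 arrays, the black tick is the fitted value and the grey bar its 95% interval (limma, n = 4). Cxcl1 and Socs3 spread over the widest ranges, while Tnip1, Tnfaip3, Il1rn and Tnfaip2 lie above 0, and Nfkbia and Birc3 below 0, on every array.

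Of the cytokines, TNF and interleukin-6 transcripts were at the limit of the array. Tnf, the founding ligand of the pathway (probe at chr17:35336795-35336854, mm9), was well above background in 1 of 4 IlrunKO livers and 0 of 4 WT livers. Its levels were 6.34, 6.31, 6.26 and 6.26 in IlrunKO on arrays 1 to 4, against 6.25, 6.22, 6.26 and 6.29 in WT. The groups overlapped, and no ratio or test is given, because the probe failed the brightness filter. Il6, which drives the hepatocyte acute phase response, was above background in 1 liver of each genotype. Its levels ran between 6.23 and 6.44 in IlrunKO and between 6.23 and 6.42 in WT.

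The interleukin-1 genes could be tested, though Il1a only just. Il1a, a cell-associated interleukin-1, was above background in 2 IlrunKO and 3 WT livers and had a log2 ratio of -0.03 ± 0.08 (SD, n = 4). For Il1b, the secreted form made mainly by macrophages, levels were 6.85, 7.43, 6.92 and 7.21 in IlrunKO, against 7.08, 6.81, 6.77 and 6.76 in WT. The IlrunKO liver of array 2 was the highest of all and the WT liver of array 1 the highest of its genotype, so that the ratio was below 0 on array 1 and above 0 on arrays 2 to 4. The fitted ratio of 0.25 had a 95% interval of -0.15 to 0.64 and did not pass (adjusted p = 0.43 in limma). It was 0.46 without array 1 and 0.035 without array 2.

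Cxcl10 came nearest to the threshold among all members. It encodes a ligand of CXCR3 that attracts T cells and is induced by interferon and NF-kB together (probe at chr5:92775781-92775840, mm9; promoter with 2 kappaB matches above). Levels were 9.60, 9.70, 9.15 and 9.26 in IlrunKO on arrays 1 to 4, against 8.88, 8.80, 8.99 and 9.30 in WT. The 2 livers with the highest level were the IlrunKO livers of arrays 1 and 2; the other IlrunKO livers lay within the WT range. Log2 ratios were 0.72, 0.90, 0.16 and -0.04, with a fitted value of 0.44 (95% interval 0.27 to 0.60, 1.35-fold) and an adjusted p of 0.0566 in limma. By dye orientation the mean ratio was 0.81 with IlrunKO in Cy5 and 0.06 with IlrunKO in Cy3. The model assigns that gap to the dye term, and with 2 livers per orientation a dye effect and a difference between mice cannot be told apart. Left without a dye term, the adjusted p was 0.29. Cxcl10 passed as higher in 2 of the 14 alternative analyses: without background correction (0.48, adjusted p = 0.0464) and in the deposited values (0.49, adjusted p = 0.0455). Over all 14 its adjusted p ranged between 0.0455 and 0.35.

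Cxcl9, another CXCR3 ligand and a target of interferon gamma, did not follow Cxcl10. Its levels were 9.58, 9.42, 9.87 and 9.70 in IlrunKO, against 9.58, 9.57, 9.5 and 9.43 in WT. At this probe the higher IlrunKO livers were those of arrays 3 and 4, the opposite dye orientation. The fitted ratio was 0.12 (95% interval -0.01 to 0.26, adjusted p = 0.27 in limma), and a second Cxcl9 probe gave 0.16 (adjusted p = 0.17). At the second probe the IlrunKO levels were 8.05, 7.71, 8.04 and 8.12, so the liver of array 1 was not below that of array 3. Its ratios were 0.06, -0.02, 0.35 and 0.26 on arrays 1 to 4.

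Cxcl1, a neutrophil attractant that hepatocytes and macrophages release, varied more between livers than nearly any gene on the array. Levels were 8.58, 12.22, 10.39 and 9.60 in IlrunKO, against 9.87, 8.76, 9.22 and 9.48 in WT. The IlrunKO group held both the highest liver (array 2) and the lowest (array 1), and the genotypes overlapped. Log2 ratios were -1.30, 3.46, 1.16 and 0.12, a mean of 0.86 ± 2.01 (SD, n = 4), and this SD was above that of 99.9% of all genes tested. The fitted ratio had a 95% interval of -1.18 to 2.90 and an adjusted p of 0.60 in limma. Single livers decided it: without array 1 the ratio was 2.05 and passed (adjusted p = 0.0327), and without array 2 it was -0.33 (adjusted p = 0.56). Over the 14 alternatives the adjusted p lay between 0.0327 and 0.85.

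The remaining chemokines were dim, and those tested had ratios close to 0 in the main fit. Ccl2, the main monocyte attractant, had a ratio of -0.00 ± 0.28 (SD, n = 4), with 0.29 and 0.11 on arrays 1 and 2 and -0.06 and -0.36 on arrays 3 and 4. Ccl3 and Ccl4, which encode macrophage inflammatory proteins, had ratios of -0.12 ± 0.14 and -0.05 ± 0.23. Ccl3 was well above background in only 1 IlrunKO liver and 3 WT livers, and its ratio depended on the processing. It was -0.40 with offset 0 and -0.79 with Agilent's processed signals, and did not pass in any alternative. Cxcl2, a close relative of Cxcl1, was not well above background in any of the 8 livers and was not tested.

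Of the 8 feedback inhibitors, 0 passed in limma (3 at an unadjusted p under 0.05), 6 had a ratio above 0 and 2 below. Among all genes tested, 1.37% passed and 20.5% had an unadjusted p under 0.05. Nfkbia, which encodes IkB alpha and is the classic fast NF-kB target, had levels of 11.52, 11.90, 12.22 and 12.01 in IlrunKO, against 11.92, 12.20, 12.22 and 12.19 in WT (probe spanning chr12:56590945-56591440, mm9). It was below its WT partner on all 4 arrays, by -0.40, -0.30, -0.01 and -0.18, although the ranges of the genotypes overlapped. The fitted ratio was -0.22 (95% interval -0.37 to -0.08, 0.858-fold) and did not pass (adjusted p = 0.13 in limma).

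Tnip1, whose product ABIN1 binds ubiquitin and assists A20 in silencing TNF receptor signalling, lay on the other side. Levels were 10.67, 10.84, 10.70 and 10.76 in IlrunKO, against 10.53, 10.44, 10.49 and 10.61 in WT. At this probe every IlrunKO liver exceeded every WT liver, by a fitted 0.22 (95% interval 0.06 to 0.38, 1.17-fold; adjusted p = 0.15 in limma). A second Tnip1 probe gave 0.20, with 0.19, 0.35, 0.16 and 0.10 on the 4 arrays and an adjusted p of 0.13; there the levels overlapped, at 10.47 to 10.69 in IlrunKO and 10.31 to 10.50 in WT. Tnfaip3, which encodes A20 itself, had levels of 7.43, 7.71, 7.56 and 7.39 in IlrunKO and 7.34, 7.51, 7.18 and 7.32 in WT. It was above its partner on all 4 arrays, while the genotypes overlapped, and the fitted 0.18 (95% interval 0.01 to 0.36) had an adjusted p of 0.23.

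Socs3, an inhibitor of interleukin-6 and STAT3 signalling, was the second most variable member. Levels were 9.90, 11.19, 10.27 and 11.32 in IlrunKO, against 10.76, 10.32, 10.78 and 9.77 in WT. Ratios of -0.86, 0.87, -0.51 and 1.55 gave a mean of 0.26 ± 1.14 (SD, n = 4), and that SD exceeded those of 99.8% of genes tested. Arrays 2 and 4 were above 0 and arrays 1 and 3 below it, so each dye orientation held both signs, and leaving out an array gave ratios between -0.25 and 0.78.

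The other inhibitors were near 0 in the main fit. Nfkbib, encoding IkB beta, split by orientation, with a mean ratio of 0.45 where IlrunKO was in Cy5 and -0.17 where it was in Cy3; its 3 probes gave 0.14, 0.05 and 0.13. Cyld, a deubiquitinase that cuts the chains on TNF receptor adaptors, did the same at 0.24 and -0.20. Nfkbie, encoding IkB epsilon, had -0.10 ± 0.17. Il1rn, the natural antagonist of the interleukin-1 receptor, was above 0 on all 4 arrays at 0.12 ± 0.10 with an adjusted p of 0.34. It was dim, and its ratio was 0.25 with offset 0 and 0.44 with Agilent's processed signals. Il1rn did not pass in any alternative.

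Neither TNF receptor gene passed. Tnfrsf1b, the TNF receptor found mainly on immune and endothelial cells, had levels of 7.40, 7.58, 7.54 and 7.57 in IlrunKO, against 7.92, 7.90, 7.75 and 7.56 in WT. It was lower in IlrunKO on arrays 1 to 3 and level on array 4, with a fitted -0.26 (95% interval -0.43 to -0.09, 0.836-fold; adjusted p = 0.13 in limma). Tnfrsf1a, the receptor present on most cells that carries the death domain, had levels of 11.81, 12.14, 11.83 and 11.66 in IlrunKO and 12.07, 11.66, 11.64 and 11.74 in WT. The genotypes overlapped, and the ratio of 0.08 had a 95% interval of -0.27 to 0.43 (adjusted p = 0.79). A second probe of Tnfrsf1a gave 0.18 (adjusted p = 0.50).

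The NF-kB subunit genes showed no difference beyond the spread between livers. Nfkb1, which encodes the p105 precursor of p50, had levels of 6.99, 6.98, 6.91 and 6.90 in IlrunKO, against 7.10, 6.96, 6.84 and 7.05 in WT. Its 95% interval was -0.20 to 0.11 in the main fit, but the probe was dim, and with Agilent's processed signals the ratio was -0.10. Nfkb2, encoding the p100 precursor of p52, had levels of 7.78, 8.0, 7.81 and 7.71 in IlrunKO, against 7.74, 7.71, 7.87 and 8.11 in WT. Relb, the partner of p52 in the non-canonical pathway, had levels of 7.13, 7.20, 7.34 and 7.55 in IlrunKO, against 7.10, 7.28, 7.53 and 7.38 in WT. All 3 overlapped between genotypes, and their fitted ratios of -0.05, -0.03 and -0.02 had adjusted p-values of 0.74, 0.88 and 0.92 in limma. Nfkbiz, a nuclear IkB protein that assists NF-kB at secondary targets, had levels of 6.83, 7.42, 7.21 and 7.29 in IlrunKO and 6.98, 7.16, 6.85 and 6.97 in WT. Its ratio of 0.20 (95% interval -0.01 to 0.40, adjusted p = 0.27) was above 0 on arrays 2 to 4 only; without array 2 it was 0.092.

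Both adhesion molecules had fitted ratios above 0 without passing. Vcam1, which binds integrins of monocytes and lymphocytes, had levels of 9.5, 9.58, 10.19 and 10.12 in IlrunKO, against 10.05, 9.13, 8.90 and 9.34 in WT. The WT liver of array 1 lay just under the upper IlrunKO livers, and the ratio there was -0.55, against 0.44, 1.29 and 0.78 on arrays 2 to 4. The fitted ratio was 0.49 (95% interval 0.01 to 0.97, 1.40-fold; adjusted p = 0.24 in limma); it was 0.74 without array 1 and 0.24 without array 2. A second, dimmer Vcam1 probe gave only 0.11, with -0.17, -0.02, 0.41 and 0.23 on the 4 arrays and an adjusted p of 0.35. Icam1, a ligand of leukocyte integrins, had a ratio of 0.17 ± 0.18 (SD, n = 4), with array 1 again below 0; without array 2 the ratio was 0.074.

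Of the 6 tested other targets, 0 passed in limma (2 at an unadjusted p under 0.05), and 5 had a ratio above 0. The shares over all genes tested were 1.37% passing and 20.5% at an unadjusted p under 0.05. Tnfaip2, a TNF-induced gene of endothelial and myeloid cells, had levels of 9.5, 9.66, 9.41 and 10.18 in IlrunKO, against 9.30, 9.36, 9.16 and 9.09 in WT. At this probe all IlrunKO livers lay above all WT livers, but the ratio of 1.09 on array 4 stood apart from 0.21, 0.30 and 0.25 on arrays 1 to 3. The fitted ratio was 0.46 (95% interval 0.09 to 0.84, 1.38-fold; adjusted p = 0.18 in limma), and without array 4 the ratio was 0.25. A second probe gave 0.45, but its levels overlapped: 8.53, 8.99, 8.76 and 9.44 in IlrunKO, against 8.27, 8.64, 8.53 and 8.46 in WT.

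Birc3, which encodes the ubiquitin ligase cIAP2 of the TNF receptor complex, had levels of 7.36, 7.41, 7.31 and 7.36 in IlrunKO, against 7.42, 7.45, 7.64 and 7.62 in WT. All IlrunKO livers lay below all WT livers, by a fitted -0.17 (95% interval -0.29 to -0.05, 0.887-fold; adjusted p = 0.14 in limma). Sod2, the mitochondrial superoxide dismutase, had a ratio of 0.09 ± 0.27 (SD, n = 4), below 0 with IlrunKO in Cy5 and above 0 with IlrunKO in Cy3. Traf1 (a TNF receptor adaptor), Ier3 (an early response gene) and Junb (an AP-1 subunit) had ratios of 0.03, 0.07 and 0.11 with 95% intervals that included 0. Ptgs2, encoding cyclooxygenase 2, was not well above background in any liver.

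**Figure D3:**
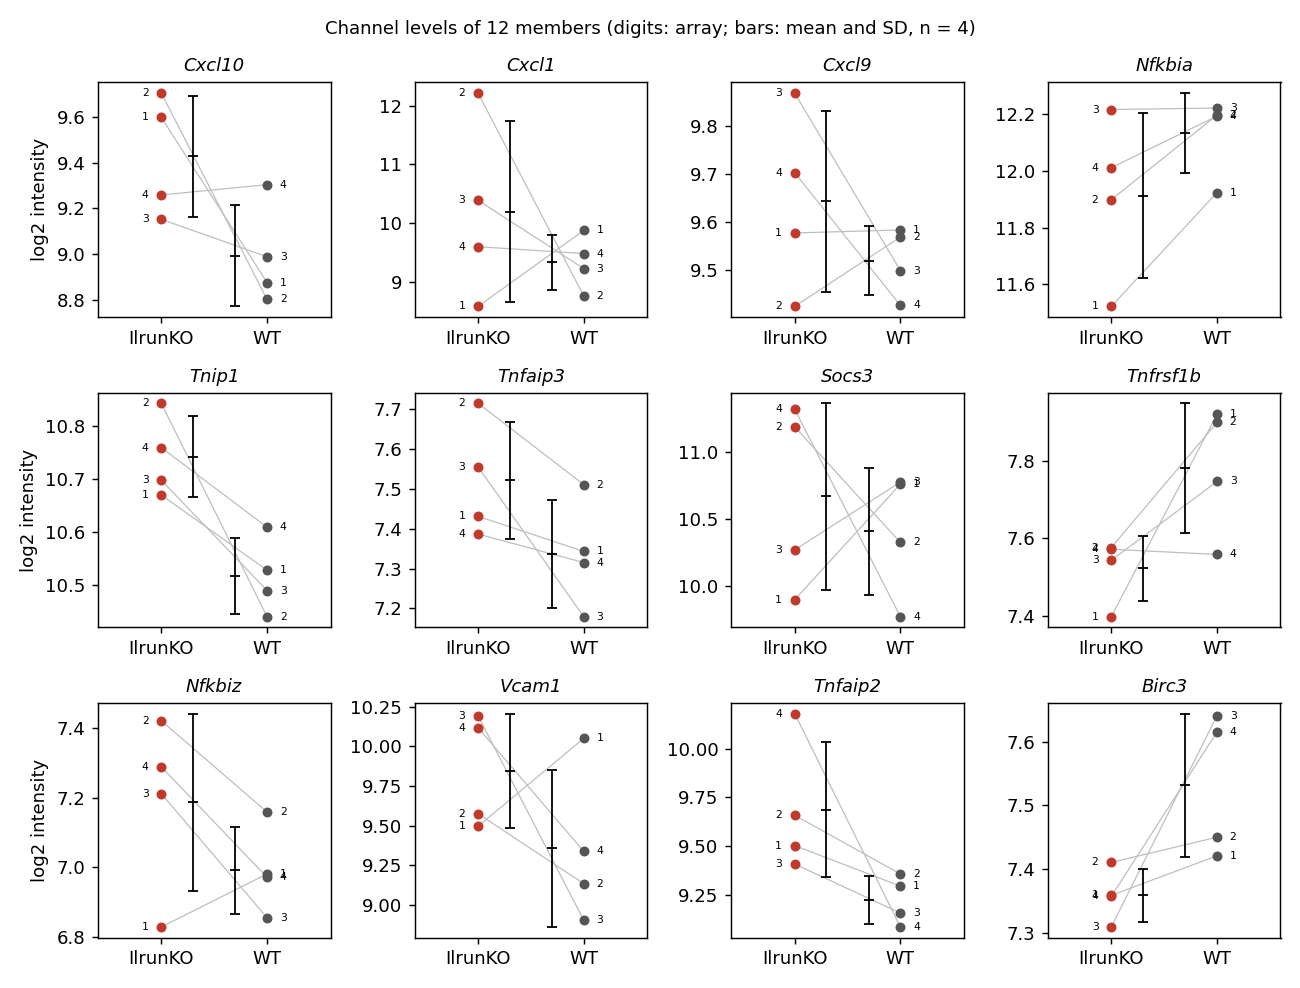
Log2 intensity of 12 members in each liver, IlrunKO on the left and WT on the right; digits give the array, lines join the livers hybridised together, and bars give the mean and SD (n = 4). The points of Tnip1, Tnfaip2 and Birc3 do not overlap between genotypes, whereas Cxcl1 and Socs3 spread widely within IlrunKO.

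The machinery above and below the members was examined in lists of further genes. For each list from here on, the shares over all genes tested serve as background. They were 1.37% passing, 20.5% at an unadjusted p under 0.05 and 23.2% with the same sign on all 4 arrays. Of 22 adaptors and ubiquitin enzymes of the TNF and interleukin-1 receptors, 22 were tested and 0 passed in limma (6 at an unadjusted p under 0.05), with 12 above 0 and a median ratio of 0.01. The 3 with the smallest p were Rnf31, the catalytic subunit of the linear ubiquitin ligase (0.35, adjusted p = 0.0557 in limma), Ripk1, the kinase scaffold of the TNF receptor (-0.48, adjusted p = 0.0732), and Ube2n, the enzyme that makes signalling ubiquitin chains (-0.31, adjusted p = 0.0768). Rnf31 was higher and Ripk1 lower in IlrunKO on all 4 arrays.

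Among 14 tested kinases and remaining subunits 0 passed in limma (5 at an unadjusted p under 0.05), 8 were above 0 and the median was 0.03. Ikbke, an IKK-related kinase, was higher on all 4 arrays (0.35, 0.48, 0.30 and 0.43; adjusted p = 0.0547), as was Tab1, a subunit of the TAK1 kinase (0.35, 0.28, 0.45 and 0.32; adjusted p = 0.0565). Ikbkg, which encodes the scaffold NEMO of the IKK complex, was lower on all 4 (-0.39, -0.10, -0.60 and -0.43; adjusted p = 0.0831). Rela, encoding the p65 subunit, had ratios of -0.34, -0.04, 0.30 and 0.40 (fitted 0.08, adjusted p = 0.58), and Rel was not well above background in any liver.

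Of 13 tested upstream receptors 0 passed in limma (2 at an unadjusted p under 0.05), with a median of 0.01; the smallest p-values belonged to Tnfrsf12a, the TWEAK receptor (-0.64, adjusted p = 0.0830), Ltbr, the lymphotoxin beta receptor (0.18, adjusted p = 0.18), and Tlr2, a receptor for bacterial lipopeptides (0.22, adjusted p = 0.26). Of 30 tested further NF-kB targets 0 passed (7 at an unadjusted p under 0.05), 18 were above 0 and the median was 0.03. The nearest were Irf1, an interferon-response transcription factor (0.48, adjusted p = 0.0886 in limma), the chemokine gene Ccl5 (0.50, adjusted p = 0.11) and Saa3, a serum amyloid A gene of macrophages and adipose tissue (0.72, adjusted p = 0.11). Irf1 and Ccl5 were above 0 on all 4 arrays and Saa3 on arrays 2 to 4. The genes of the known ILRUN partners, Irf3, Ep300 (p300) and Crebbp (CBP), had ratios of -0.06, -0.11 and -0.14, and 0 of these 3 passed in limma (1 at an unadjusted p under 0.05).

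Levels of acute phase genes differed between livers of the same genotype. Mean level of the 16 acute phase genes, the secreted hepatocyte proteins that interleukin-6 and interleukin-1 induce, was 13.61, 14.65, 14.03 and 13.64 in IlrunKO on arrays 1 to 4, against 14.28, 13.45, 13.68 and 13.70 in WT. The IlrunKO liver of array 2 and the WT liver of array 1 were thus the highest of their genotypes. The 30 tested members gave the same extremes, with mean levels of 8.35, 8.66, 8.50 and 8.51 in IlrunKO and 8.46, 8.35, 8.37 and 8.41 in WT. Of the acute phase genes 0 of 16 passed (3 at an unadjusted p under 0.05), with 6 above 0, 10 below and a median ratio of -0.07. Those with the smallest p were Crp (-0.42, adjusted p = 0.0680 in limma), Orm3 (1.95, adjusted p = 0.0994) and Apcs (-0.81, adjusted p = 0.20). Saa1, picked after its values were seen, had ratios of -1.31, 3.96, 1.94 and -0.01, beside -1.30, 3.46, 1.16 and 0.12 for Cxcl1. With 4 pairs of livers this likeness is a description without a test.

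Markers of Kupffer cells and macrophages had the same highest IlrunKO liver and the same highest WT liver as the members. On arrays 3 and 4 their median ratios were well above 0, while those of the members were close to 0. Among all genes tested, 20.5% had an unadjusted p under 0.05. Of 19 such genes 18 had a ratio above 0 and 0 passed in limma (10 at an unadjusted p under 0.05), with a median of 0.41, which was 0.65 without array 1 and 0.17 without array 2. Their median by array was -0.13, 0.83, 0.48 and 0.55, against -0.06, 0.20, 0.07 and 0.03 for the members. Mean level of the list lay between 10.35 and 10.81 in IlrunKO and between 9.99 and 10.49 in WT, the highest WT liver being that of array 1. The defining gene Clec4f had levels of 12.42, 12.85, 12.67 and 12.58 in IlrunKO, against 12.68, 12.05, 12.35 and 12.33 in WT (0.28, adjusted p = 0.44 in limma). The smallest p-values in the list were those of Aif1 (0.67, adjusted p = 0.0786), Cd68 (0.21, adjusted p = 0.12) and Cd163 (-0.25, adjusted p = 0.12). In bulk liver, a change in the number of cells of a type and a change in RNA per cell cannot be told apart. The part of macrophage content in the values of the members was not tested.

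**Figure D4:**
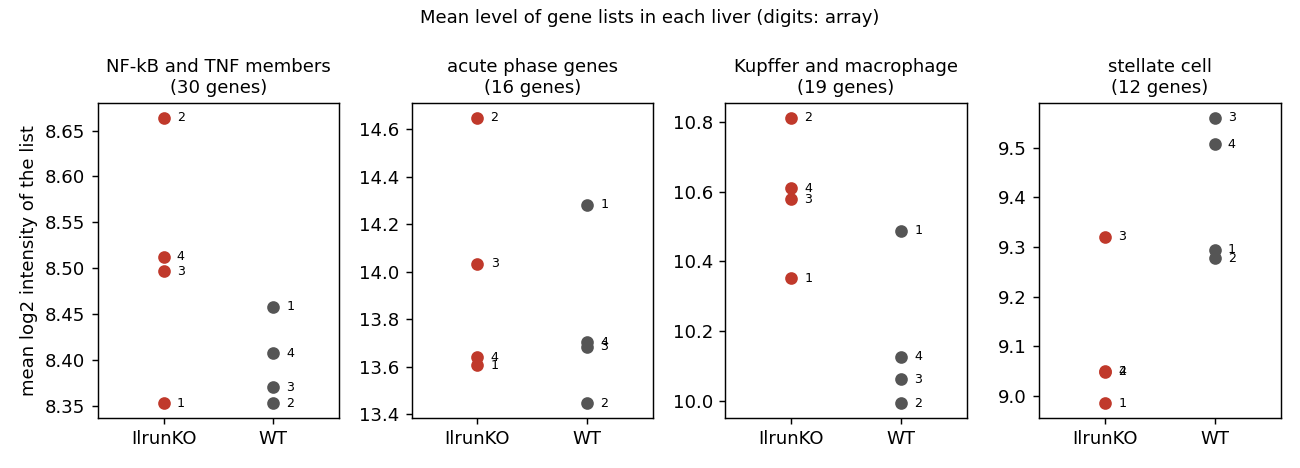
Mean log2 intensity of 4 gene lists in each liver, IlrunKO on the left and WT on the right, with digits for the array. In the members, the acute phase genes and the Kupffer and macrophage genes alike, array 2 holds the highest IlrunKO liver and array 1 the highest WT liver.

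Other cell types were measured in the same way, again beside 1.37% of all genes tested passing and 20.5% at an unadjusted p under 0.05. Hepatocyte markers had a median of -0.36, with 8 of 9 below 0, 0 passing in limma and 7 at an unadjusted p under 0.05; by array the median was -0.12, 0.09, -0.34 and -0.46. Monocyte and neutrophil markers had a median of 0.04 with 0 of 11 passing in limma and 1 at an unadjusted p under 0.05. Endothelial markers had a median of -0.06 with 0 of 12 passing and 3 at that level. All 12 stellate cell markers were below 0 (median -0.30) and 0 passed (10 at an unadjusted p under 0.05), with mean levels of 8.98 to 9.32 in IlrunKO and 9.28 to 9.56 in WT. Of 11 lymphocyte markers 1 passed: Nkg7, a granule gene of cytotoxic cells, fell (-0.76, adjusted p = 0.0304 in limma). Of 6 tested adipocyte markers 2 rose, Cfd (3.82, adjusted p = 0.0471) and Adrb3 (1.04, adjusted p = 0.0304), while the defining gene Adipoq was not well above background in any liver. Cholangiocyte markers had a median of -0.04, with 0 of 4 passing and 1 at an unadjusted p under 0.05.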

How the data were processed

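Scanner files of 4 arrays were deposited by the authors with raw intensity (mean spot brightness and median local background in each channel) and log10 ratios (Cy5 over Cy3). Per the file headers, Feature Extraction 10.10.1.1 wrote them. Deposited log2 values of the same arrays were also given; set against the scanner values they held IlrunKO over WT on every array, with column medians of -0.044 to 0.04. Per the submitters' processing notes limma was used; for those values, the sources used here give no version, background correction or normalisation. Probe positions are mm9 per the file headers, so exons and UTRs, annotated here only on GRCm38.p6, were not assigned.

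Ratios were computed from raw intensity in limma 3.58.1 (R 4.3.3, data.table, version 1.17.8) with normexp (offset 50) and loess within arrays, leaving out outlier spots; 1377 control spots had weight 0. No spot was saturated. Levels were scaled between arrays on average intensity (Aquantile). Probes were named by accession (26055), by symbol or synonym (4125) or kept the file's name (9249). The brightest probe stood for a gene. Genes whose probe exceeded background (Feature Extraction's well-above-background mark) in 3 or more livers of either genotype were fitted with dye and genotype terms (lmFit, eBayes), with Benjamini-Hochberg adjustment over all 19673 genes and a threshold of 0.05. The dye term takes up differences between arrays 1 and 2 and arrays 3 and 4. The fit was tested on simulated data.

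The members, the lists and the alternatives were chosen with earlier results of these data known. Values by array were given for any member that passed, the 10 with the smallest p, Tnf, the subunits and the receptors; further lists name those that passed, up to 3 with the smallest p and a defining marker. Cxcl1, Socs3 and Il1b were added after their values were seen. Alternatives changed the dye term, background correction, normalisation, filter, probe choice, variance model, source of values and arrays left out.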

Additional observations from a re-analysis of the deposited data

Results flagged for a closer look

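The 4 IlrunKO levels, the 4 WT levels and the 4 log2 ratios of each tested member, and the 4 array medians of all members and of each role group, were searched for a value far from the other 3, by Dixon's 95% critical value. Of 98 such groups of 4 values 5 were marked, and chance marks about 5% of groups, so the number of marks is near what chance gives. The members concerned were these. Tnfaip2 had a log2 ratio of 1.095 on array 4, above the 3 others. In the WT liver of array 1, Il1b (level 7.076) and Junb (level 7.149) were above the other WT livers and Nfkbia (level 11.92) was below them. In the WT liver of array 4, Traf1 had a level of 6.832, above the other WT livers. The WT liver of array 1 thus held 3 of the 5 marks, which did not share a direction. It was also the WT liver with the highest mean level of the acute phase genes (14.28, against 13.45, 13.68 and 13.70). A link between these marks and that level was not tested.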

How the results depend on the processing

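Over 14 alternatives, the median ratio of the members stayed above 0 (0.0048 to 0.13), Ilrun stayed lower and passed, and the count of members that fell stayed at 0. The count of members that rose was 0, but 1 without background correction and 1 in the deposited values (Cxcl10), and 0 to 1 on leaving out an array. Genes passing numbered 269 (140 up, 129 down), and 442 without background correction, 80 with Agilent's processed signals, 412 with a trended robust variance, 448 in the deposited values, and 1 to 464 on leaving out an array, where an orientation is left with 1 array. Median centring in place of loess left 1 call (0 up, 1 down), put 34.9% of all genes above 0, and gave 3 members at an unadjusted p under 0.05 against 8; leaving out an array gave 4 to 12. The cause of these shifts was not tested. The fitted ratio changed sign for 13 members in at least 1 alternative. Ccl2 was 0.022 with offset 0, 0.034 without background correction, 0.036 with processed signals and 0.040 in the deposited values. Median centring gave Il1a 0.0063, Cyld -0.063, Tnfrsf1a -0.037 and Sod2 -0.067. On leaving out an array the ratio ranged from -0.079 to 0.074 for Ccl2, -0.075 to 0.017 for Il1a, -0.0088 to 0.048 for Cyld, -0.10 to 0.27 for Tnfrsf1a, -0.12 to 0.058 for Nfkb2, -0.33 to 2.05 for Cxcl1, -0.25 to 0.78 for Socs3, -0.11 to 0.072 for Relb, -0.054 to 0.12 for Traf1, -0.025 to 0.24 for Junb, -0.13 to 0.019 for Ccl4 and -0.10 to 0.011 for Nfkb1. Brightness over background limits what can be said of 4 members: Tnf, Il6, Cxcl2 and Ptgs2 could not be tested. Each ratio is taken within an array, so every fit was paired by array, and no further block was fitted.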
